A study of Mus musculus with 12 samples.

Results

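CD4+ T cells of γδTCR-/- mice (knockout) were compared with CD4+ T cells of WT C57BL/6 mice (wild-type) after both had eaten an MCD diet, which lacks methionine and choline. The comparison was taken from the labels: 4 of the 12 libraries of the series, 2 a genotype, described across all genes. Mice were 7 weeks old when the diet began and ate it for 6 weeks. CD4+ T cells of the same genotypes on a control diet (another 4 libraries, none shared with the MCD groups) are given beside them, and the remaining libraries held γδ T cells from wild-type mice on the control or MCD diet. Cells were sorted by flow cytometry into lysis buffer, and their RNA was sequenced. The labels do not say which gene the knockout removes, which strain carries it, or from which organ the cells came. Nor do they state whether each replicate is its own mouse, so p-values reflect only the spread among the samples at hand, which may be technical.

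CD4+ T cells carry an αβ T cell receptor (TCR) and recognise peptides on MHC class II. Once activated they take on helper, cytotoxic or regulatory programmes, each with its own transcription factors, cytokines and chemokine receptors. γδ T cells respond early to tissue stress and are a source of inflammatory cytokines in the liver, and the MCD diet is used in mice to model steatohepatitis, in which a fatty liver becomes inflamed. The series title ties γδ T cells to this disease, and the comparison asks how CD4+ T cells differ under the diet in mice that lack the γδ receptor.

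Total counts were 18528243 and 18320601 in knockout replicates 1 and 2 and 17035638 and 17093398 in wild-type replicates 1 and 3. Mitochondrial genes took 43.9% and 41.1% of the knockout counts and 43.9% and 40.8% of the wild-type counts. A floor of 3 counts lay at 0.138 to 0.147 CPM (counts scaled to library size, with TMM factors), and 0 pairs of libraries held identical values. Cd4, the co-receptor gene, read 958 and 1030 CPM in knockout and 880 and 764 CPM in wild-type cells. Cd3e, a signalling chain of the receptor, read 917 and 703 against 638 and 621 CPM. Trac, the αβ receptor's α constant gene, read 391 and 348 against 344 and 338 CPM. All 4 libraries thus carried the markers of the sorted cells. In these 3 genes both knockout libraries lay above both wild-type libraries, by 1.08-fold (Trac) to 1.29-fold (Cd3e), as in 15.9% of all genes tested. Their unadjusted p-values in edgeR's quasi-likelihood test were 0.489 (Cd4), 0.0862 (Cd3e) and 0.765 (Trac).

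No gene passed the test between genotypes on the MCD diet. By edgeR's quasi-likelihood test, 0 of 16218 genes (0%) had an adjusted p under 0.05, and the lowest adjusted p was 1. An unadjusted p under 0.05 was seen for 337 genes (2.08%), 184 higher (1.13%) and 153 lower (0.943%) in knockout cells, against 811 expected by chance. Fitting only the 8 CD4+ libraries gave 769 such genes, and fitting only the 4 libraries compared gave 786, each among fewer genes tested. The shortfall against chance thus changed with the libraries fitted, and is not evidence that the genotypes were alike. DESeq2, which tested more genes than these 16218, called 49 genes, 25 higher and 24 lower, and limma-voom called 0. Log2 fold changes of the DESeq2 calls ran from -24.03 (Gm15715) to 20.42 (Hhex), with Gnai3 (1.40) and Mtmr9 (3.37) among them. The counts of DESeq2 and edgeR thus do not cover the same genes. Without the library of knockout replicate 1 edgeR called 1 gene, the γ constant gene Tcrg-C1, and without γδ MCD replicate 2 or 4, which enter the shared spread, it called Mtmr9. Single libraries of a genotype also differed from each other. Over the 9237 genes whose higher group averaged 5 CPM or more, the median absolute log2 difference was 0.568 between the knockout replicates and 0.557 between the wild-type replicates. Of these 9237 genes, 654 (7.08%) were higher and 715 (7.74%) lower by at least 2-fold with no overlap between the genotypes' libraries. All genes below are therefore given as values, and none is a call on this diet.

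**Figure D1:**
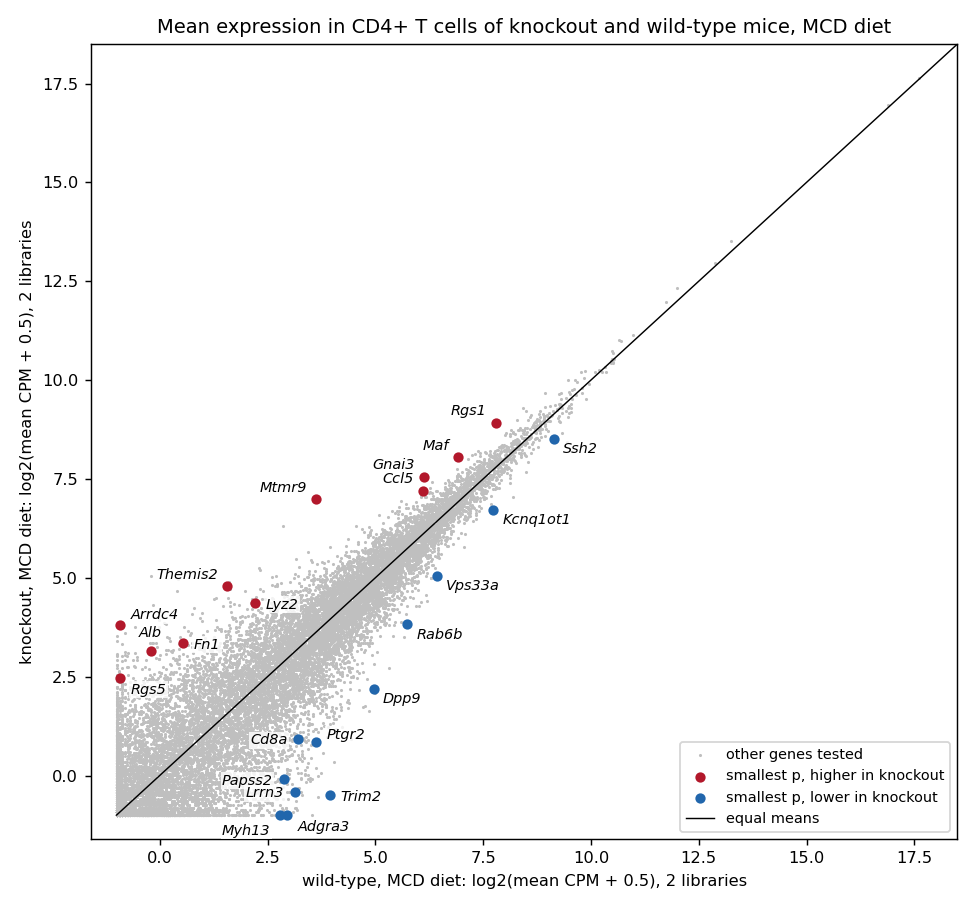
Mean expression of the 16218 genes tested in CD4+ T cells on the MCD diet, as log2(mean CPM + 0.5) of 2 wild-type libraries (x axis) and 2 knockout libraries (y axis). Red and blue points are the genes named in the text for the smallest p in either direction, among those that averaged 5 CPM or more in the higher group; Mtmr9, Gnai3, Rgs1, Maf and Ccl5 lie above the line of equal means at high expression, and Ssh2 and Kcnq1ot1 below it.

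Among the 12 genes with the smallest p on the higher side, 5 were well expressed in both genotypes. Mtmr9, which encodes a catalytically inactive member of the myotubularin lipid phosphatases (chromosome 14, 63519651 to 63543982 in GRCm38), read 146 and 106 CPM in knockout and 9.93 and 13.9 CPM in wild-type cells. The gap was far wider than the spread within either genotype: 10.6-fold, with a log2 fold change of 3.39 (SE 0.774, unadjusted p = 0.000665). Gnai3, an inhibitory G protein α subunit that carries signals of chemokine receptors (chromosome 3, 108107280 to 108146146), read 189 and 187 against 67.7 and 72.2 CPM, or 2.69-fold higher (log2 fold change 1.43, SE 0.357). Rgs1, which switches off such G proteins and limits lymphocyte migration to chemokines (chromosome 1, 144242296 to 144249242), read 486 and 485 against 186 and 257 CPM, or 2.20-fold higher (1.13, SE 0.285). Replicates agreed closely in knockout cells for both genes, and the genotypes did not overlap. Maf, for the transcription factor c-Maf that drives Il10 and Il21 in helper cells (chromosome 8, 115682942 to 115707794), read 261 and 270 against 101 and 141 CPM, or 2.19-fold higher (1.13, SE 0.325). Ccl5, a chemokine of effector and memory T cells (chromosome 11, 83525778 to 83530518), read 128 and 166 against 67.3 and 68.7 CPM, or 2.16-fold higher (1.11, SE 0.333).

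Others with the smallest p on the higher side were low, at or near 0 in some cases, in wild-type cells. Arrdc4, an α-arrestin linked to receptor traffic and glucose uptake, read 13.2 and 13.9 CPM in knockout cells against 1 and 0 counts in wild-type cells (ratio 552, 95% counting interval 102 to 22500), and Rgs5, a regulator of G protein signalling best known from pericytes, read 3.73 and 6.39 CPM against 1 and 0 counts (ratio 206, 37.8 to 8440). These intervals cover counting error only. Fn1 (fibronectin) read 10.4 and 8.97 against 1.77 and 0.139 CPM. Themis2, a signalling adaptor of B and myeloid cells, read 12.3 and 42 against 4.28 and 0.647 CPM. Lyz2, the lysozyme of macrophages and neutrophils, and Alb, serum albumin of hepatocytes, are genes of other cells. Lyz2 read 29.7 and 10 against 5.6 and 2.59 CPM, and Alb read 14.5 and 2.25 against 0.59 and 0.139 CPM, so that in both genes knockout replicate 1 was the highest library. None of the genes named here overlapped between the genotypes, where 15.9% of all genes tested were without overlap above. Their choice by smallest p favours such separation, so it adds no support.

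On the lower side, Ssh2 and Kcnq1ot1 were the most expressed. Ssh2, a phosphatase that activates the actin-severing protein cofilin (chromosome 11, 77216287 to 77460220), read 370 and 359 CPM in knockout and 602 and 525 CPM in wild-type cells, or 1.55-fold lower (log2 fold change -0.63, SE 0.209). Kcnq1ot1, a long non-coding RNA of an imprinted locus that lies antisense to Kcnq1, read 90.5 and 119 against 266 and 159 CPM. The sources used here do not say that reads were counted by strand, so reads of Kcnq1ot1 and Kcnq1 cannot be told apart. Vps33a, a subunit of the complex that tethers late endosomes and lysosomes, read 43.5 and 21.7 against 94.2 and 76.8 CPM. Rab6b, a Golgi Rab GTPase, read 16.3 and 11 against 73.4 and 32.5 CPM, and Dpp9, a peptidase that restrains the NLRP1 inflammasome, read 4.65 and 3.5 against 38.1 and 23.3 CPM.

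A further set was at or near 0 in knockout cells. Trim2, a ubiquitin ligase, read 0.369 and 0.046 CPM in knockout and 16.6 and 13.1 CPM in wild-type cells, a 71.7-fold difference that rests on 8 and 1 knockout counts. Its log2 fold change was -5.60, and -6.66 and -4.99 without knockout replicate 1 and 2. Papss2, which makes the sulfate donor PAPS, read 0.645 and 0.23 against 5.5 and 8.22 CPM (15.7-fold). Its log2 fold change was -3.69, and -4.39 without knockout replicate 1. The surface protein gene Lrrn3 read 0.276 and 0.23 against 10.4 and 6.05 CPM (32.5-fold). Adgra3, an adhesion G protein-coupled receptor, had 0 counts in both knockout libraries and 112 and 194 counts in wild-type libraries, at least 52.4-fold lower against a floor of 3 counts a library. Myh13, a muscle myosin heavy chain with several close relatives in the genome, was likewise at 0 against 158 and 108 counts (at least 46.2-fold lower). Ptgr2, a prostaglandin reductase, read 0.922 and 1.66 against 15.3 and 8.31 CPM. Cd8a, the co-receptor chain of CD8 T cells, read 0.875 and 1.93 against 6.39 and 11.2 CPM. In none of these 12 genes did the genotypes overlap, where 17% of all genes tested were without overlap below. Choice by smallest p favours such separation, so it adds no support.

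**Figure D2:**
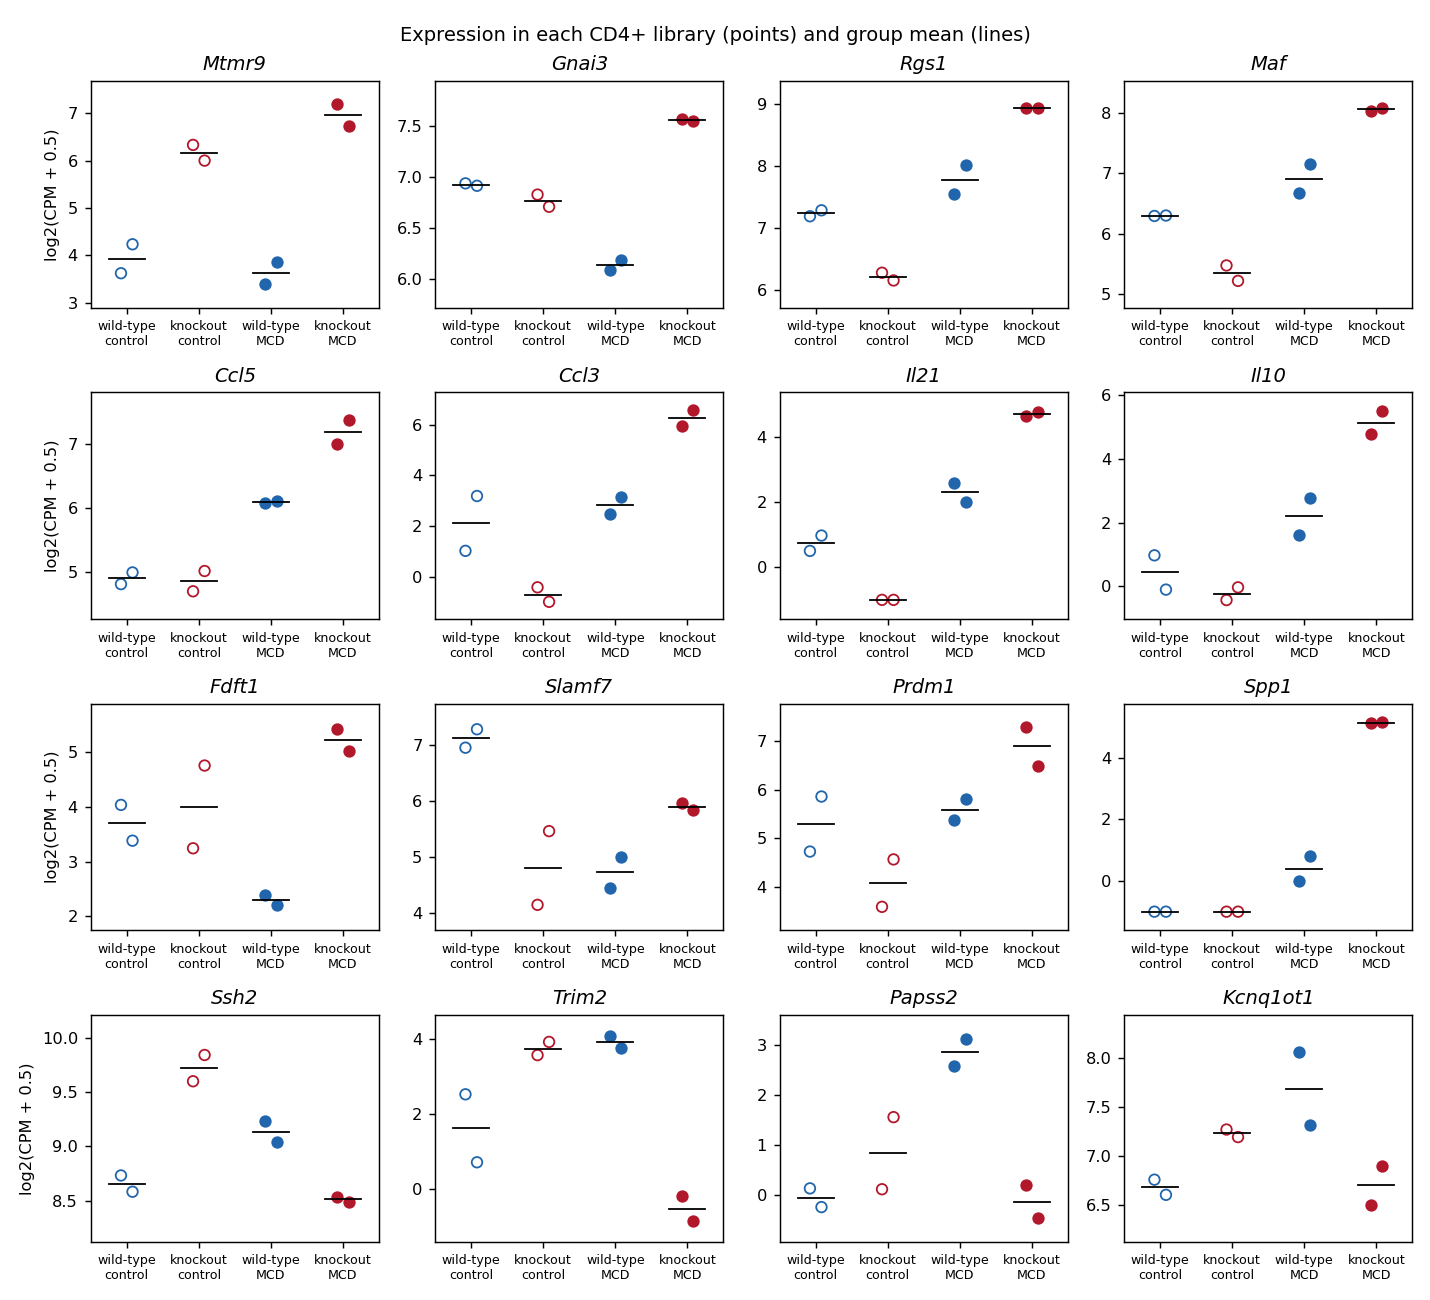
Expression of 16 genes in each of the 8 CD4+ libraries, as log2(CPM + 0.5); open circles are the control diet, filled circles the MCD diet, blue wild-type, red knockout, and lines the mean of the 2 log2 values of a group. On the MCD diet the knockout pair lies above the wild-type pair in the panels from Mtmr9 to Spp1 and below it in Ssh2, Trim2, Papss2 and Kcnq1ot1, while on the control diet the order is the other way round in Rgs1, Maf, Ssh2, Trim2 and Slamf7, among others.

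Genes were also read by programme, in 31 lists. Genes without overlap, in which both knockout libraries lay above both wild-type libraries, made up 15.9% of all genes tested, and those in which both lay below made up 17%. The log2 fold change was above 0 in 49.2% and below 0 in 49.2% of all genes, with a median of 0. No list member passed the test on this diet. Lists share members (Il21, Prdm1, Icos, Ctla4 and Tox each stand in more than 1), so their counts are not independent. In bulk RNA, a change in the number of cells of a type and a change in RNA per cell cannot be told apart.

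**Figure D3:**
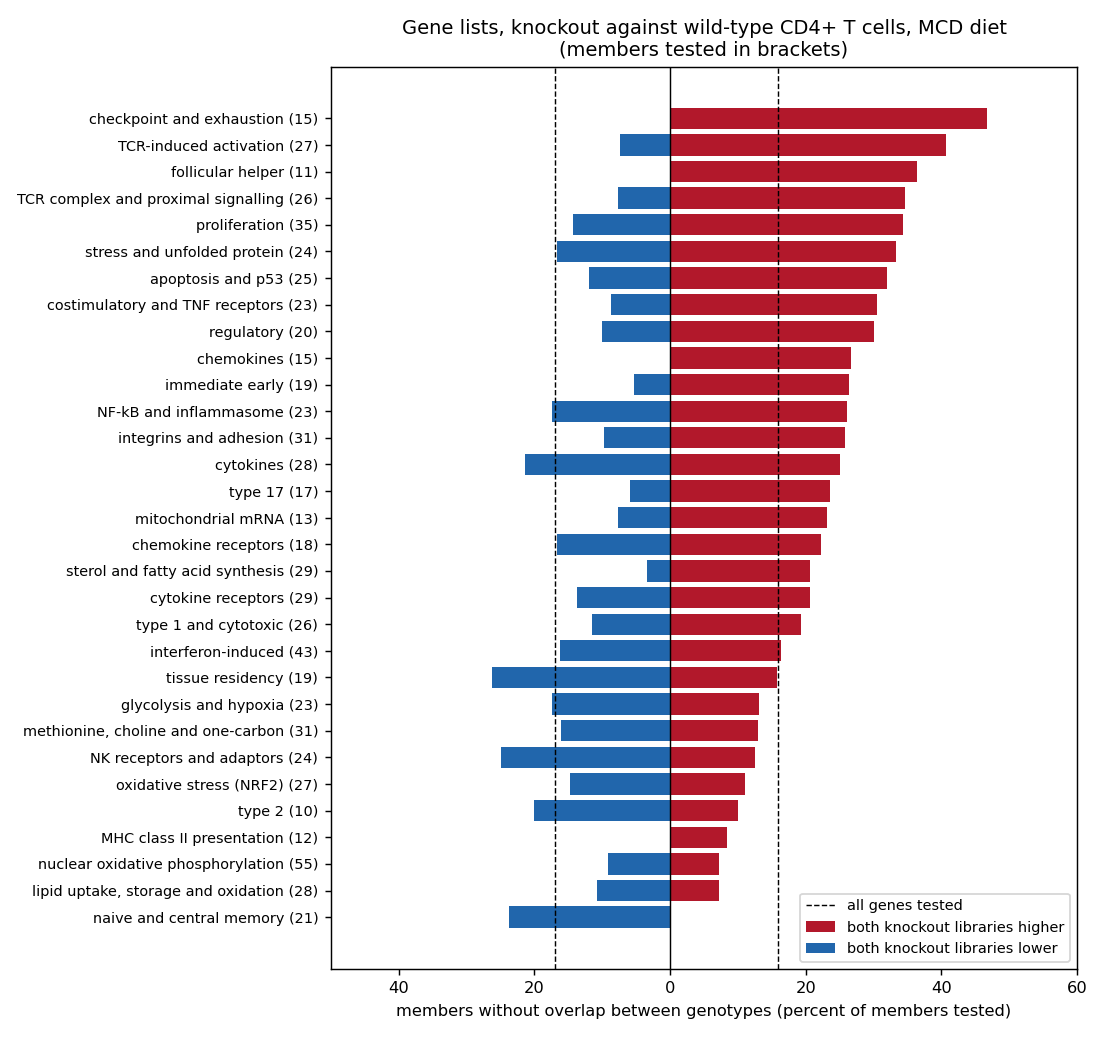
Members of each list without overlap between genotypes on the MCD diet, as a percentage of members tested (number in brackets): red to the right, both knockout libraries above both wild-type libraries; blue to the left, both below. Dashed lines mark all genes tested (15.9% and 17%); the checkpoint list has the longest red bar (46.7%), and the naive list has none.

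Of the 31 programme lists, those of checkpoint and TCR-induced genes had the largest shares above. Of 15 checkpoint and exhaustion genes tested, 11 were higher and 4 lower in knockout cells, with a median log2 fold change of 0.52, and 7 (46.7%) were without overlap above and 0 below. Ctla4, an inhibitory receptor that competes with CD28, read 249 and 300 CPM in knockout and 149 and 154 CPM in wild-type cells. Tigit, an inhibitory receptor for nectins, read 119 and 169 against 52.5 and 99.6 CPM, and Havcr2, for TIM-3, read 35.4 and 90.2 against 12.8 and 27.2 CPM. The knockout pair of Havcr2 spanned a wide range, and its lower library lay near the higher wild-type library. Tox, a factor of chronically stimulated T cells, read 161 and 176 against 78.3 and 117 CPM. Of 27 TCR-induced genes, 19 were higher and 8 lower (median 0.37), with 11 (40.7%) without overlap above and 2 (7.41%) below. Icos, a costimulatory receptor of activated T cells, read 178 and 200 against 110 and 131 CPM. Irf4, a factor induced in step with receptor signal strength, read 72 and 41.8 against 33 and 29.7 CPM, and Dusp2, a phosphatase of MAP kinases, read 71.7 and 104 against 65.6 and 38.5 CPM. Tox2, a factor of follicular helper cells, read 16.9 and 12.7 against 6.88 and 2.4 CPM. When any 1 of the 12 libraries was left out, the median of the checkpoint list ran from 0.50 to 0.88 and that of the TCR-induced list from 0.22 to 0.49.

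Immediate early genes, which respond within minutes to stimulation and also to cell handling, were higher in 14 of 19 tested (median 0.30), with 5 (26.3%) without overlap above and 1 (5.26%) below. Klf6, a zinc finger factor, read 485 and 715 CPM in knockout and 395 and 320 CPM in wild-type cells (1.68-fold, unadjusted p = 0.0136). Dusp1, a phosphatase that ends MAP kinase signals, read 429 and 583 against 287 and 339 CPM, and the AP-1 subunit gene Jun read 62.1 and 121 against 50.8 and 56.5 CPM. Knockout replicate 2 was the highest library in all 3 genes, and without 1 library the list's median ran from -0.05 to 0.59. The TCR complex and its proximal signalling genes were higher in 19 of 26 (median 0.20), with 9 (34.6%) above and 2 (7.69%) below. The adaptor gene Themis read 206 and 286 against 160 and 167 CPM. Plcg1, the phospholipase that links the receptor to calcium, read 84.2 and 92.9 against 138 and 184 CPM, and Ptpn6, for the inhibitory phosphatase SHP-1, read 22.9 and 27.3 against 41.5 and 63.9 CPM.

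Chemokine genes were split. Of 15 chemokine genes tested, 7 were higher and 7 lower (median 0), with 4 (26.7%) without overlap above, Ccl3, Ccl4, Ccl5 and Ccl6, and 0 below. Ccl5 alone was higher at an unadjusted p under 0.05 by edgeR's test, and 0 were lower. Ccl3, an inflammatory chemokine, read 62 and 96.4 CPM in knockout and 5.11 and 8.41 CPM in wild-type cells, 11.7-fold higher (log2 fold change 3.53, SE 1.65). Ccl4, its neighbour and close relative, read 11.1 and 13.4 against 5.31 and 1.89 CPM, and Ccl6, a chemokine of myeloid cells, read 7.19 and 3.04 against 0 and 1.25 CPM. The list's median was -0.27 without knockout replicate 1 and 0.43 without wild-type replicate 3. Of 18 chemokine receptor genes, 12 were higher and 6 lower (median 0.21), with 4 (22.2%) above and 3 (16.7%) below, and the median was -0.10 without wild-type replicate 3 and 0.62 without replicate 1. Ccr9, the gut-homing receptor, was on the lower side, at 35.9 and 46.7 against 86.8 and 61.2 CPM. Xcr1, a receptor of cross-presenting dendritic cells, read 3.5 and 39.8 against 0.934 and 2.82 CPM and so rested on knockout replicate 2.

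Cytokine genes were divided too, with 15 of 28 higher and 13 lower (median 0.10), 7 (25%) without overlap above and 6 (21.4%) below. By edgeR's test 0 of them were higher at an unadjusted p under 0.05 and 2 were lower, so Il21 and Il10 did not reach it. The median was -0.14 without knockout replicate 1 and 0.30 without wild-type replicate 3. Il21, a helper cytokine that acts on B cells and CD8 T cells, read 24.5 and 27.2 CPM in knockout and 5.55 and 3.56 CPM in wild-type cells, 5.67-fold higher (log2 fold change 2.48, SE 1.45). Il10, an anti-inflammatory cytokine, read 27.1 and 44.8 against 2.6 and 6.42 CPM, 7.96-fold higher (2.96, SE 1.71; 3.73 without wild-type replicate 3). Both stood clear of the wild-type pair. Maf, which acts upstream of both in helper cells, was also higher in the same libraries, but a link between these genes was not tested. Tnfsf10, for the death ligand TRAIL, read 153 and 100 against 79.7 and 76 CPM. Lif, of the interleukin-6 family, went the other way, with 0 counts in both knockout libraries and 13.1 and 0.416 CPM in wild-type cells, where a single library held nearly all of it. Among receptors, Il10ra, the ligand-binding chain for interleukin-10, read 31.8 and 77.9 against 22 and 7.85 CPM.

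Regulatory genes were higher in 14 of 20 and lower in 6 (median 0.38), with 6 (30%) without overlap above and 2 (10%) below. Without knockout replicate 1 the median was 0.01, and over all such omissions it ran to 0.45. Prdm1, for the factor BLIMP-1 of effector and Il10-producing T cells, read 155 and 89.5 CPM in knockout and 40.8 and 55.5 CPM in wild-type cells, 2.54-fold higher (log2 fold change 1.34, SE 0.609). Capg, an actin-capping protein of effector regulatory cells, read 9.17 and 10.4 against 2.95 and 2.91 CPM. Type 17 genes were split, 9 higher and 8 lower of 17 (median 0.22), with 4 (23.5%) above and 1 (5.88%) below, and Maf and Il21 were among the higher ones. Ccr6, the homing receptor of type 17 cells, read 14.2 and 5.34 against 4.91 and 2.17 CPM. Rora, a nuclear receptor gene, overlapped at 232 and 184 against 205 and 151 CPM, and Tmem176b, a membrane protein of type 17 and myeloid cells, read 23.5 and 5.11 against 30.7 and 33.4 CPM. Type 1 and cytotoxic genes were split as well, 15 higher and 11 lower of 26 (median 0.07), with 5 (19.2%) above and 3 (11.5%) below. Gzmk, a granzyme of memory-like effector cells, read 39.5 and 59.6 against 3.74 and 17.1 CPM, and Eomes, a factor of cytotoxic cells, read 13.8 and 36.2 against 7.13 and 8.41 CPM. Gzma, another granzyme gene of this list, went the other way, with a log2 fold change of -3 in the fit with no filter. By edgeR's test 1 member was higher and 1 lower at an unadjusted p under 0.05. Follicular helper genes were higher in 7 of 11 (median 0.29), with 4 (36.4%) above and 0 below. Without knockout replicate 1 the median was 0.05 for type 17, -0.32 for type 1 and 0.15 for follicular helper genes. It was 0.46 and 0.51 for type 17 and follicular helper genes without wild-type replicate 1, and 0.29 for type 1 genes without wild-type replicate 3. Type 2 genes were lower in 6 of 10 (median -0.21, 0.35 without wild-type replicate 3 and -0.52 without replicate 1), and their lineage factor Gata3 read 45.6 and 41.4 against 61 and 63.1 CPM, with its partner Stat6 at 67.1 and 61 against 113 and 128 CPM.

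Costimulatory and TNF receptor genes were higher in 14 of 23 (median 0.18), with 7 (30.4%) without overlap above and 2 (8.7%) below. The median was 0.07 without wild-type replicate 1 and 0.34 without replicate 3. Slamf7, a homotypic receptor of cytotoxic and activated lymphocytes (chromosome 1), read 61.9 and 56.9 CPM in knockout and 21.4 and 31.6 CPM in wild-type cells, 2.24-fold higher (log2 fold change 1.16, SE 0.42, unadjusted p = 0.0154). Tnfrsf1b, a TNF receptor of regulatory and effector cells, read 119 and 114 against 78.4 and 79.3 CPM, and Cd28, the main costimulatory receptor, read 532 and 580 against 459 and 325 CPM.

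The promoters of Ccl3, Il21, Slamf7 and Prdm1 are shown because these genes were higher in both knockout libraries and are inducible through the TCR, which acts through AP-1 and NFAT. Ccl3 and Il21 did not reach an unadjusted p under 0.05 by edgeR's test. Each is the 250 bases before the RefSeq start, on the gene's (minus) strand of GRCm38.p6: chr11:83649379-83649628 for Ccl3, chr3:37232637-37232886 for Il21, chr1:171649000-171649249 for Slamf7 and chr10:44458749-44458998 for Prdm1. Capitals mark matches to the AP-1 motif TGANTCA or the NFAT core GGAAA, on either strand (TTTCC where the core lies on the other strand).
Ccl3: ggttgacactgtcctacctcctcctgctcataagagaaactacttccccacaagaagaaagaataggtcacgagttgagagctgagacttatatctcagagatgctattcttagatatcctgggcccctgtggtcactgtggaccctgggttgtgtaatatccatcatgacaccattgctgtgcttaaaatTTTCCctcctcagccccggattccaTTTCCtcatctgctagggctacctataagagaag
Il21: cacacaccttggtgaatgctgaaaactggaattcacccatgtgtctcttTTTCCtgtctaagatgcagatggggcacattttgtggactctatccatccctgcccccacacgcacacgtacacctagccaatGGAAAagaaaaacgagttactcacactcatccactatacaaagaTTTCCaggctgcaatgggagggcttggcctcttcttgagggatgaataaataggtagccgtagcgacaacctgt
Slamf7: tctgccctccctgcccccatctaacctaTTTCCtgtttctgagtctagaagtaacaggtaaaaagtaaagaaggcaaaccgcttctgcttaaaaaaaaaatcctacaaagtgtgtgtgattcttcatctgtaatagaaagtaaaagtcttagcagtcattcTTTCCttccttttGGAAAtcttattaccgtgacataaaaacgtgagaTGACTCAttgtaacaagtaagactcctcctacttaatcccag
Prdm1: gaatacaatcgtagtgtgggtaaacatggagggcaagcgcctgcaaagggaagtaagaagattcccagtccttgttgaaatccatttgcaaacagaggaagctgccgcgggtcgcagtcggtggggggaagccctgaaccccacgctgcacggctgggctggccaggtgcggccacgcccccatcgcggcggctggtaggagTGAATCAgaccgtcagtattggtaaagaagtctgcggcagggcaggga
The AP-1 motif was matched 1 time each in Slamf7 and Prdm1 and 0 times in Ccl3 and Il21, and 6.75% of 32851 promoter windows of this length held it. The NFAT core was matched 2 times in Ccl3, 3 times in Il21, 3 times in Slamf7 and 0 times in Prdm1, and 55.6% of windows held it. No match of either motif overlapped a match of the other. These matches describe letters and do not show that a factor binds. Mtmr9, Rgs1, Maf, Ccl5, Ccl4, Il10 and Fn1 had no entry.

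Naive and residency genes did not share this direction. Of 21 naive and central memory genes, 8 were higher and 13 lower in knockout cells (median -0.05, and -0.20 to 0 without any 1 library), with 0 without overlap above and 5 (23.8%) below. Lef1, a transcription factor of naive T cells, read 173 and 212 CPM in knockout and 262 and 293 CPM in wild-type cells. Satb1, a chromatin organiser of thymocytes and naive cells, read 526 and 617 against 789 and 646 CPM, and Txk, a kinase of resting T cells, read 212 and 155 against 304 and 253 CPM. Foxp1, which holds T cells quiescent, overlapped at 212 and 254 against 228 and 169 CPM. Of 19 tissue residency genes, 9 were higher and 10 lower (median -0.09, -0.30 and 0.02 without knockout replicate 1 and 2), with 3 (15.8%) above and 5 (26.3%) below. Rgs1 and Prdm1 were among the higher genes, as was Cdh1 (E-cadherin) at 6.04 and 23.9 against 0.491 and 5.03 CPM. Zfp683, for the residency factor HOBIT, was lower at 21.2 and 5.84 against 35.4 and 42.7 CPM, and P2rx7, a receptor for extracellular ATP, was lower at 102 and 43.2 against 107 and 115 CPM.

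Some NK receptor and γδ genes separated the knockout replicates from each other. Of 24 NK receptor and adaptor genes, 7 were higher and 16 lower in knockout cells (median -0.46, -1.42 without knockout replicate 1 and -0.06 without wild-type replicate 1), with 3 (12.5%) without overlap above and 6 (25%) below. Klrb1c, for the receptor NK1.1, read 55.1 CPM in knockout replicate 1 but 0.828 CPM in replicate 2, against 57.1 and 34.5 CPM in wild-type cells. The γ constant gene Tcrg-C1 read 39.6 and 1.2 against 35.5 and 12.4 CPM. Tcrg-C2 read 19.3 and 10.8 against 43.2 and 23.1 CPM, and Tcrg-C4 read 21.3 and 9.25 against 41.7 and 24.6 CPM. For Tcrg-C1 and Klrb1c, knockout replicate 1 lay close to the higher wild-type library, and replicate 2 lay below both. The direction of Tcrg-C1 and Klrb1c turned when knockout replicate 2 was left out (log2 fold changes of 0.72 and 0.26), beside -0.23 and -0.71 with all libraries.

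Markers of other cells were low in all 4 libraries but not equal between genotypes. The summed level of 20 macrophage and Kupffer cell markers was 74.3 and 45.4 CPM in knockout and 19.6 and 41.5 CPM in wild-type cells. Of 18 tested, 10 were higher and 7 lower (median 0.75, and -0.03 without knockout replicate 1), with 5 (27.8%) without overlap above and 2 (11.1%) below. Csf1r, the receptor that macrophages need to survive, read 11.3 and 9.2 against 2.75 and 4.02 CPM, while the Kupffer cell marker Timd4 and the complement gene C1qa had 0 counts in all 4 libraries. Hepatocyte markers summed to 58 and 58.2 against 42.6 and 61.6 CPM, mostly from Ass1, so that the sum overlapped. Of 14 hepatocyte markers tested, 6 were higher and 5 lower, 4 (28.6%), Alb among them, were without overlap above and 0 below, and 4 had an unadjusted p under 0.05, all higher. Of the 21, 7 were at 0 in all 4 libraries, among them Apoa2, Fgb and Cyp3a11. Endothelial markers summed to 112 and 77.9 against 141 and 124 CPM, with 8 of 17 tested higher, 7 lower, 5 (29.4%) without overlap above and 2 (11.8%) below. Their summed level was thus lower in both knockout libraries. The sinusoidal gene Dnase1l3 went the other way, at 17.5 and 8.1 against 2.6 and 6.6 CPM. Stellate cell markers summed to 6.54 and 7.18 against 0.541 and 0.139 CPM, mainly through Rgs5, with 5 of 7 tested higher, 2 (28.6%) without overlap above and 0 below, and with the collagen genes Col1a2 and Col3a1 at 0 in all 4. Cholangiocyte markers summed to 35.2 and 36.6 against 1.13 and 1.48 CPM, almost wholly through Spp1, with Krt19, Sox9 and Cftr at 0 in all 4. Spp1 encodes osteopontin, which activated T cells and macrophages also make. It read 34.5 and 34.7 CPM in knockout and 0.491 and 1.25 CPM in wild-type cells (39.8-fold). Its log2 fold change was 5.16, and 5.87 without wild-type replicate 3. It had 0 counts in all 4 control-diet CD4+ libraries.

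Lymphocyte and myeloid markers varied by library. Dendritic cell markers summed to 24.7 and 81.8 CPM in knockout and 26.8 and 15.7 CPM in wild-type cells. Of 9 tested, 7 were higher and 2 lower (median 1.23, and -0.21 without knockout replicate 2), with 2 (22.2%) without overlap above and 1 (11.1%) below, and Batf3 was at 0 in all 4. Neutrophil and monocyte markers summed to 187 and 52.9 against 109 and 89.5 CPM. Of 12 tested, 9 were higher and 2 lower (median 0.69, and 0 without knockout replicate 1), with 1 (8.33%) without overlap in each direction and with Camp, Ngp and Ltf at 0 in all 4. The integrin gene Itgam, of myeloid and NK cells, read 33 and 11.7 against 7.47 and 6.23 CPM. NK markers summed to 86 and 45.4 against 83.8 and 59.1 CPM, γδ markers to 87.7 and 22.4 against 123 and 60.5 CPM, and CD8 markers to 2.99 and 3.63 against 12.8 and 11.3 CPM. B and plasma cell markers summed to 274 and 340 against 324 and 230 CPM, mostly from Ighm, and this sum overlapped. Yet 13 of the 16 were higher and 3 lower in knockout cells (median log2 fold change 0.86), with 7 (43.8%) without overlap above and 0 below. Their median was 0.80 to 2 without any 1 library, with the highest value without wild-type replicate 3, and 0.17 to 2.55 at other settings. Of the summed levels in this paragraph up to here, only that of CD8 markers was without overlap between genotypes. T cell markers summed to 1740 and 1510 against 1400 and 1380 CPM. The part of other cells in the differences above was not tested.

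**Figure D4:**
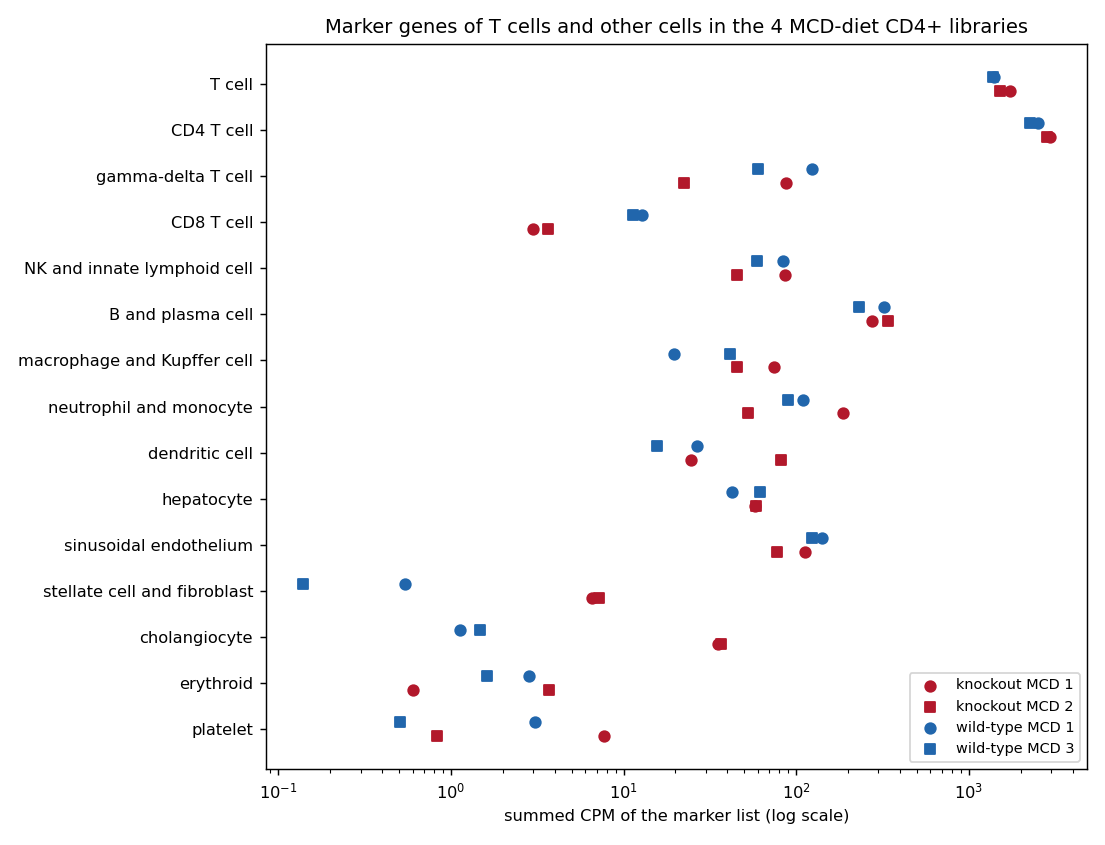
Summed CPM (log scale) of each marker list in the 4 MCD-diet CD4+ libraries; red is knockout, blue wild-type, circles replicate 1 and squares knockout replicate 2 or wild-type replicate 3. T cell and CD4 lists lie far above the rest. Among the other lists, both knockout libraries lie higher in the stellate, cholangiocyte and, narrowly, macrophage lists and lower in the CD8 and endothelial lists.

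Proliferation, stress and sterol genes leaned higher in knockout cells. Of 35 proliferation genes, 21 were higher and 14 lower (median 0.37), with 12 (34.3%) without overlap above and 5 (14.3%) below. Mki67, a marker of cycling cells, read 198 and 198 CPM in knockout and 105 and 136 CPM in wild-type cells. Aurkb, a mitotic kinase, read 9.31 and 7.68 against 0.786 and 0.0462 CPM, and Rrm2, which makes nucleotides for DNA synthesis, read 16.5 and 21.1 against 8.55 and 5.5 CPM. The chromatin protein gene Hmgb2 read 53.8 and 107 against 45.2 and 41.2 CPM, while the mitotic kinase gene Plk1 was lower at 0.875 and 0.368 against 1.82 and 12.6 CPM. The list's median kept its sign without any 1 library, at 0.19 without knockout replicate 1 to 0.63 without wild-type replicate 3. Of 24 stress and unfolded protein genes, 16 were higher and 8 lower (median 0.24), with 8 (33.3%) above and 4 (16.7%) below. The median was 0.10 without wild-type replicate 3 and 0.53 without replicate 1. Hspa5, the main chaperone of the endoplasmic reticulum, read 270 and 244 against 145 and 139 CPM, and the cytosolic chaperone gene Hsp90aa1 read 286 and 283 against 176 and 166 CPM. Pdia3, which folds glycoproteins, read 196 and 128 against 125 and 82.7 CPM, and Ddit4, an inhibitor of mTOR, was lower at 21 and 12 against 66 and 37.8 CPM.

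Of 29 sterol and fatty acid synthesis genes, 21 were higher and 8 lower (median 0.23), with 6 (20.7%) without overlap above and 1 (3.45%) below. The median was 0.14 and 0.38 without knockout replicate 2 and 1. Fdft1, squalene synthase, read 42.4 and 32.1 CPM in knockout and 4.72 and 4.11 CPM in wild-type cells, 8.44-fold higher (log2 fold change 3.05, SE 1.03, unadjusted p = 0.0102). Cyp51, a later enzyme of the pathway, read 31.1 and 54.6 against 4.77 and 24.2 CPM, and Fdps, which makes the substrate of squalene synthase, read 5.62 and 11.8 against 0.836 and 2.26 CPM. Among 23 NF-kB and inflammasome genes, 16 were higher and 7 lower (median 0.17), with 6 (26.1%) above and 4 (17.4%) below. The median was 0.10 without knockout replicate 2 and 0.39 without wild-type replicate 3. Casp1, the inflammasome protease, read 81.7 and 109 against 40.5 and 26.4 CPM (2.85-fold, unadjusted p = 0.0302), and Pycard, its adaptor, read 40.9 and 69.6 against 31.6 and 28.7 CPM. Apoptosis and p53 genes were higher in 15 of 25 (median 0.22, 0.12 without wild-type replicate 3 and 0.59 without replicate 1), with 8 (32%) above and 3 (12%) below.

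The same genotype difference on the control diet had another shape. There, 4 of 16218 genes (0.0247%) passed edgeR's test at an adjusted p under 0.05, 1 higher (0.00617%) and 3 lower (0.0185%). The count was 7 to 27 when any 1 library was left out and 160 with DESeq2 (41 higher and 119 lower). The balance of directions also moved, with 6 higher and 0 lower calls in limma-voom and 2 higher and 0 lower when the 4 compared libraries were fitted alone. At an unadjusted p under 0.05 stood 653 genes (4.03%), 200 higher (1.23%) and 453 lower (2.79%), against 811 expected by chance. The ribosomal RNA mt-Rnr2 was higher in knockout cells (log2 fold change 0.68). The prothrombinase and T cell effector gene Fgl2 (-3.07), the collagen-binding integrin gene Itga1 (-3.33) and the γ constant gene Tcrg-C4 (-4.33) were lower. On the MCD diet their log2 fold changes were 0.04 for mt-Rnr2, 0.47 for Fgl2, -0.30 for Itga1 and -1.11 for Tcrg-C4, and none was a call. The value of mt-Rnr2 turned to -0.02 with library size scaling and to -0.01 without knockout MCD replicate 1. Without 1 library that of Fgl2 ran from 0.03 (knockout replicate 1 left out) to 1.08 (wild-type replicate 3) and that of Tcrg-C4 from -1.83 (knockout replicate 1) to -0.64 (knockout replicate 2). Mitochondrial genes took 52.7% and 51.1% of the counts of knockout cells on the control diet but 42.2% and 41.1% of those of wild-type cells, a gap that the MCD libraries did not show. The part of this share in the control-diet differences was not tested. The difference between the genotype effects of the diets was tested as an interaction in edgeR, which called 0 genes (lowest adjusted p = 0.299). An unadjusted p under 0.05 was seen there for 703 genes (4.33%), 463 higher (2.85%) and 240 lower (1.48%), against 811 expected by chance. DESeq2 called 90 and limma-voom 1, and edgeR called 0 to 21 when any 1 library was left out, with the most (20 and 21) without γδ MCD replicate 2 or 4.

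Several genes stood on opposite sides of the genotype comparison on the 2 diets. Rgs1 read 76.9 and 70.5 CPM in knockout and 145 and 155 CPM in wild-type control-diet cells, so that it was 2.04-fold lower there and 2.20-fold higher on the MCD diet. Maf read 43.9 and 36.7 against 77.8 and 78.2 CPM on the control diet (1.93-fold lower). Slamf7 read 17.2 and 43.7 against 124 and 156 CPM (4.59-fold lower). For Ssh2 the order was reversed, with 776 and 918 CPM in knockout and 425 and 383 CPM in wild-type control-diet cells (2.10-fold higher). The genotypes did not overlap on either diet in any of these 4 genes. The interaction of Rgs1, Slamf7 and Ssh2 had an adjusted p = 0.299 each in edgeR, and that of Maf had 0.63. Limma-voom called Ssh2 alone for this difference. Il21 had 0 counts in both knockout control libraries and 0.92 and 1.47 CPM in wild-type ones, and Ccl3 read 0.244 and 0 against 1.52 and 8.58 CPM. Ccl5 did not differ on the control diet beyond its spread, at 25.5 and 31.9 against 27.6 and 31.4 CPM, and Gnai3 read 113 and 104 against 122 and 120 CPM. Mtmr9 was on the same side on both diets, at 80.2 and 63.6 against 11.8 and 18.3 CPM on the control diet (4.76-fold higher).

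**Figure D5:**
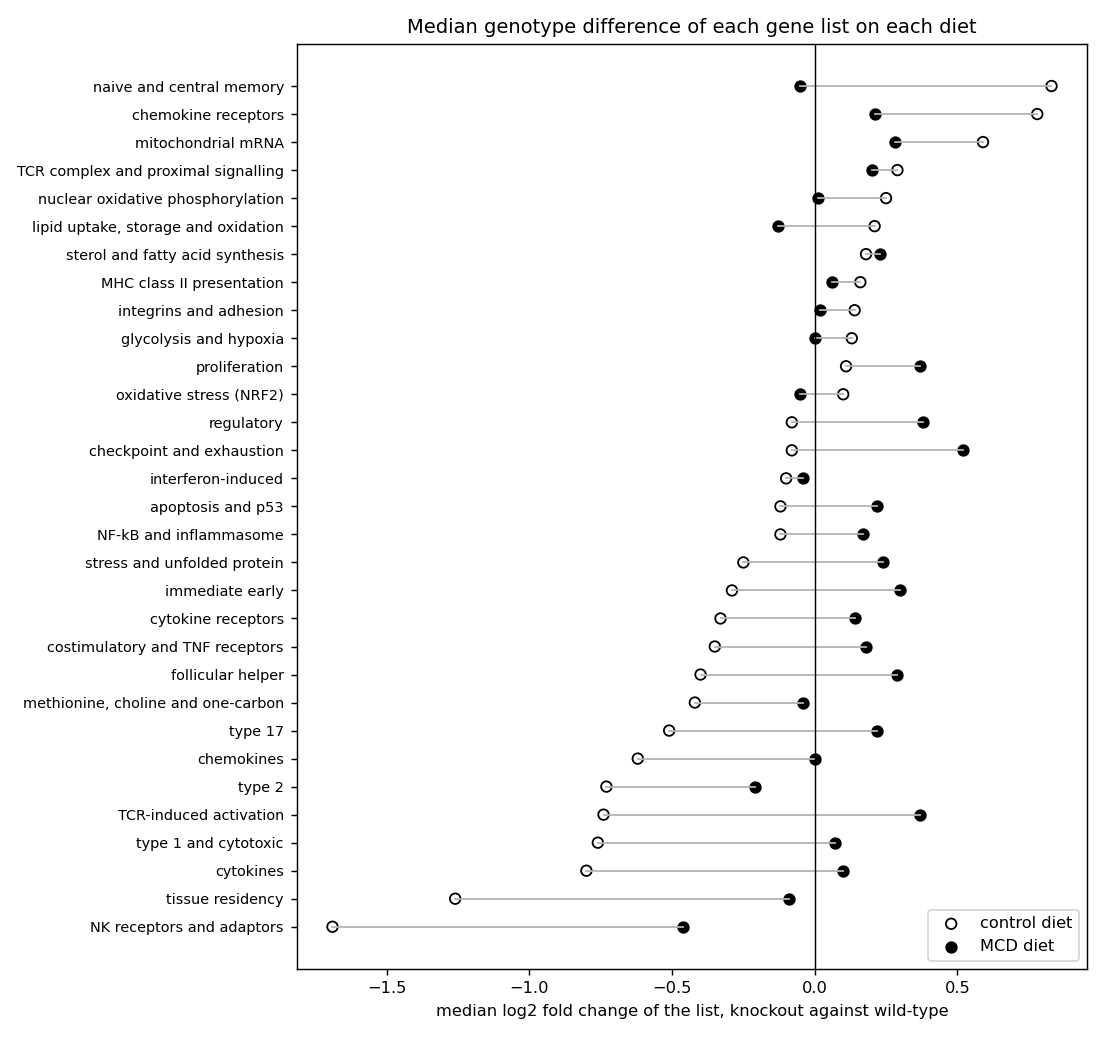
Median log2 fold change of each list between knockout and wild-type CD4+ T cells on the control diet (open circles) and on the MCD diet (filled circles), the 2 values of a list joined by a line. The naive list lies at 0.83 on the control diet and -0.05 on the MCD diet, and the TCR-induced list at -0.74 and 0.37.

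Medians of the 31 programme lists ran from -1.69 to 0.83 on the control diet and from -0.46 to 0.52 on the MCD diet. The naive list had 20 of 21 members higher in knockout control-diet cells (median 0.83, 16 without overlap above, 76.2%) and 8 of 21 on the MCD diet (median -0.05, 0 above). On the control diet 16.7% of all genes were without overlap above and 20.6% below, and the log2 fold change was above 0 in 46.9% and below 0 in 51.2%. The TCR-induced list had 7 members higher and 20 lower (median -0.74) with 11 (40.7%) below, where the MCD diet had 11 above. Tissue residency genes had a median of -1.26 and NK receptor genes of -1.69 on the control diet, beside -0.09 and -0.46 on the MCD diet. With members at 0 in a group set to their bound of 3 counts a library, the NK receptor medians were -0.73 on the control diet and -0.40 on the MCD diet. Over all genes, 427 (2.63%) were without overlap and higher in knockout cells on both diets and 582 (3.59%) lower on both. A further 578 (3.56%) were higher on the MCD diet and lower on the control diet, and 483 (2.98%) the other way round. The 2 comparisons share no library.

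Genes with an unadjusted p under 0.05 in the same direction on both diets were most frequent on chromosome 14. The larger set without overlap on the same side on both diets was not counted by chromosome. Chromosome 14 also holds Trac and the δ locus inside the α locus, and any part of this position was not tested. On that chromosome 17 of 598 genes tested (2.84%) had an unadjusted p under 0.05 on the MCD diet, beside 2.08% of all genes. Of these, 5 also had an unadjusted p under 0.05 in the same direction on the control diet, or 5 of the 598 tested. Each other autosome and X held 0 to 2 such genes among 346 to 1247 tested, and the difference between chromosomes was not tested. The 5 on chromosome 14 were Mtmr9, Atp8a2, Ppp1r3e, Tssk4 and an α variable segment, and apart from Mtmr9 they were chosen after their values were seen. Ppp1r3e was at or near 0 CPM in knockout cells on both diets, and Tssk4 and the segment in wild-type cells. Atp8a2, a phospholipid flippase (59638540 to 60197179), read 32.7 and 8 CPM in knockout and 73.8 and 57.9 CPM in wild-type cells on the MCD diet. On the control diet it read 19.9 and 2.98 against 95.4 and 96.6 CPM. Ppp1r3e, a glycogen-targeting subunit of protein phosphatase (54872669 to 54877550), read 0.875 and 0.092 against 20.3 and 4.16 CPM. On the control diet it had 0 counts in both knockout libraries and read 7.82 and 4.38 CPM in wild-type ones. Tssk4, a testis-specific kinase (55650184 to 55652539), read 2.17 and 5.93 against 0.0983 and 0 CPM on the MCD diet. Trac lies at 54220521 to 54224206 on the same chromosome.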

How the data were processed

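RNA of sorted CD4+ and γδ T cells was sequenced in 12 libraries, 6 groups of 2 taken from the labels. The authors deposited raw counts per gene (52459 genes) and FPKM values, the latter used here only as an alternative. Per the submitters' processing notes, bcl2fastq, STAR, featureCounts and DESeq2 were used on mm10 (GRCm38), and their roles and versions are not given in the sources used here. Gene positions came from GENCODE vM21 and promoters from RefSeq (GRCm38.p6). GENCODE positions were matched by symbol for 15590 of the genes tested.

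The filterByExpr step of edgeR, with a minimum count of 10 and a minimum total of 15, retained 16218 genes. The model held all 12 libraries and 1 coefficient per group (edgeR 4.0.16, R 4.3.3, TMM, quasi-likelihood test, 2-sided, Benjamini-Hochberg, threshold 0.05; prior count 2 for log2 fold changes). Folds are ratios of mean TMM-scaled CPM. A group with no counts was set to 3 counts a library, which makes its fold a lower bound. The fit was tested on simulated data. DESeq2 and the fit with no filter, both given as alternatives, tested more genes than these 16218.

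Because fewer than 5 genes passed a direction, the 12 smallest p-values a direction were named among genes that averaged 5 CPM or more in the higher group, leaving aside pseudogenes, transcripts without a name and antigen receptor segments. Up to 6 members with the smallest p under the same limit were named from each list described. Some genes that these rules choose are not reported here. The 31 programme and 15 marker lists, the comparison and the rules were chosen with earlier results of these data known. Marker genes at 0 and the genes called on the control diet were named after their values were seen.

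Alternatives were RLE and library-size scaling, removal of mitochondrial genes, DESeq2 1.42.0, limma-voom 3.58.1, a filter at 50 mean counts or none at all, a robust spread estimate, FPKM on the log2 scale (pseudocount 1 or 0.1), the 8 CD4+ libraries, the 4 compared libraries, thinning to equal totals, a replicate block and leaving out each library.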

Additional observations from a re-analysis of the deposited data

How the results depend on the processing

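On the MCD diet the count of 0 called genes became 49 with DESeq2, 11 with no filter, 5 on log2 FPKM with a pseudocount of 1 and 1 with the 8 CD4+ libraries, and 0 to 1 without any 1 library. On the control diet the count of 4 became 160 with DESeq2, 52 with no filter, 2 on log2 FPKM with a pseudocount of 1, 2 with only the 4 libraries compared and 7 to 27 without any 1 library. For the difference between diets, 0 became 90 with DESeq2, 44 with no filter, 1 with limma-voom, 1 with the 8 CD4+ libraries and 0 to 21 without any 1 library. The cause was not tested, although leaving out a library also changed which genes entered the fit, and the upper ends for the control diet and the difference came without γδ MCD replicate 4. The MCD groups share only number 1, so the replicate block was fitted over the knockout libraries of both diets; it gave 0, 6 and 1 calls, the last being the difference between diets. Deviations of same-numbered knockout libraries correlated at -0.00521. This value cannot show whether such libraries share a batch or another source, and the labels tie them only by number. The adjusted p of Mtmr9 was 0.00402 (DESeq2) to 1 over all settings, with log2 fold changes that kept their sign.

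Of 43 list medians, 7 changed sign at another setting and 17 without 1 library. Of 108 named genes, only mt-Rnr2 reversed at another setting (-0.02 with library size scaling). Without any 1 library the log2 fold change ran from -0.01 to 0.08 for mt-Rnr2, from -4.21 to 0.72 for Tcrg-C1 and from -5.63 to 0.26 for Klrb1c, which all changed sign. Depth limits values near 0.14 CPM, the floor of 3 counts.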

Other observations

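Several programmes had shares without overlap near or under those of all genes on the MCD diet (15.9% above and 17% below). Shares above were larger for integrin and adhesion genes (25.8%), mitochondrially encoded mRNAs (23.1%) and cytokine receptor genes (20.7%). Their shares below were 9.68%, 7.69% and 13.8%. Of 43 interferon-induced genes, 20 were higher and 23 lower in knockout cells, with 7 (16.3%) without overlap in each direction. Irf1, an interferon response factor, read 71.3 and 55.3 CPM in knockout and 36.6 and 40.3 CPM in wild-type cells, while Isg20, an antiviral exonuclease, read 4.19 and 2.07 against 16.6 and 23.3 CPM and the DNA sensor gene Ifi208 read 45.7 and 50.8 against 115 and 66.6 CPM. Of 55 nuclear oxidative phosphorylation genes, 28 were higher and 27 lower (median 0.01), and Ndufs4, of complex I, read 30.8 and 33.7 against 12.6 and 4.99 CPM. Mitochondrially encoded mRNAs were higher in 11 of 13 (median 0.28, 0.05 without wild-type replicate 3 and 0.63 without replicate 1), with mt-Co1, of cytochrome oxidase, at 11400 and 12200 against 9060 and 10300 CPM.

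Genes of methionine, choline and one-carbon metabolism, the nutrients that the diet lacks, were divided, with 15 of 31 higher and 16 lower (median -0.04), 4 (12.9%) without overlap above and 5 (16.1%) below. Slc44a2, a choline transporter, read 167 and 139 CPM in knockout and 210 and 244 CPM in wild-type cells. Sat1, which breaks down polyamines, read 33 and 77.6 against 16.3 and 22.8 CPM, and the mitochondrial folate enzyme gene Mthfd1l read 18.4 and 12.7 against 29.3 and 28.7 CPM. NRF2 target genes were lower in 16 of 27 (median -0.05), glycolysis genes were higher in 12 of 23 (median 0), and lipid uptake and storage genes were higher in 14 of 28 (median -0.13). MHC class II genes were higher in 7 of 12 (median 0.06), with 1 (8.33%) without overlap above and 0 below. Cytokine receptor genes were higher in 18 of 29 (median 0.14). Integrin and adhesion genes were higher in 17 of 31 (median 0.02), with Itga4, a chain of the receptor VLA-4, at 1080 and 1300 against 893 and 859 CPM and the collagen receptor gene Itga2 at 38.8 and 48.9 against 15.5 and 28.3 CPM. Erythroid and platelet markers summed to at most 7.74 CPM in any of the 4 libraries.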
